A study of Homo sapiens with 6 samples.

Results

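A set of 368 genomic regions was called as accessible in all 3 ATAC-seq libraries of NuMA-depleted HCT116 cells and in none of the 3 libraries of wild-type cells. They are called depleted-only regions here. They were chosen by the called peaks of both groups, after merging the 6 deposited peak lists wherever intervals overlapped by at least 1 bp, on chromosomes 1 to 22 and X, and they made up 0.625% of the 58926 merged regions. Their number, strength and absence from the wild-type lists are therefore given as a description, without a test.

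The tested cells carried the genotype label NuMA depletion (titles tagged AID) and the cells they were set against the label wild type (titles tagged NC). Both came from HCT116, an established human colon cancer line, with 3 libraries per group. The labels do not spell out the tags, the agent, its duration or the number of clones, nor whether the wild-type cells carry the same alleles or received the same agent. They give 100000 and 500000 as cell numbers per sample in the same text, and do not say whether replicates were separate cultures. NuMA protein was not measured in these lists.

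ATAC-seq uses a transposase that inserts sequencing adapters preferentially into DNA not wrapped in nucleosomes, so a pile of fragments marks an accessible site such as a promoter, an enhancer or an insulator. NuMA is a large coiled-coil protein that gathers microtubule minus ends at the spindle poles in mitosis and belongs to the nuclear interior in interphase. The study concerns its role in local chromatin architecture together with linker histone H1, which binds DNA at the entry and exit of the nucleosome and favours compact chromatin.

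The lists held 38466, 45892 and 21783 peaks in NuMA-depleted replicates 1, 2 and 3, and 32503 to 38685 in the wild-type libraries. Depth in reads is unknown. Relative depth, recovered from the fold and p-value of each peak and scaled to a mean of 1 over the 6 libraries, was 1.07, 1.21 and 1.11 after NuMA depletion, against 0.762 to 0.975 in wild type. By this estimate the 3 NuMA-depleted libraries were the deepest, but by the median pileup in the regions called in all 6 libraries replicate 3 was the lowest. That median was 33, 45 and 22 fragments in NuMA-depleted replicates 1, 2 and 3, against 27, 31 and 27 in wild-type replicates 1, 2 and 3. The weakest peaks of every list had a −log10 q of about 2, that is a q of 0.01, and a region without a peak in a list may still be accessible there.

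The depleted-only regions stood at the end of a gradient of wild-type calls. Of the 19702 regions called in all 3 NuMA-depleted libraries, 368 (1.87%) had a peak in 0 wild-type libraries, 696 in 1, 1629 in 2 and 17009 in all 3. In the other direction, 349 of the 23999 regions called in all 3 wild-type libraries (1.45%) had no peak in a NuMA-depleted library, which is 0.592% of all merged regions. One step away from membership on the depleted side were 2599 regions with a peak in 2 NuMA-depleted libraries and in no wild-type library, and 2322 of them (89.3%) missed only replicate 3, whose list was the shortest. The same share among regions in 2 NuMA-depleted libraries that also had wild-type calls is not given here. The count of depleted-only regions rose by construction when a library was left out. It was 585 (1.03% of the regions merged without it), 432 (0.803%) and 2691 (4.59%) without NuMA-depleted replicates 1, 2 and 3. Without wild-type replicates 1, 2 and 3 it was 567 (0.998%), 703 (1.25%) and 532 (0.923%). It was 195 (0.422%) when each NuMA-depleted call needed a −log10 q of 5 or more while any deposited wild-type peak excluded a region.

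The regions just inside and just outside the rule differed by single weak calls. The weakest call of any depleted-only region belonged to chr11:30939331-30939646 (hg19, as all positions here), with a −log10 q of 2.0 in NuMA-depleted replicate 1 and 7, 15 and 8 fragments at the summit in replicates 1, 2 and 3. Next came chr6:44002113-44002997, with a −log10 q of 2.08 in replicate 3 and 17, 29 and 9 fragments, and chr6:132375543-132376103, with 2.16 in replicate 3 and 18, 22 and 7 fragments. Both were carried by replicates 1 and 2 and were marginal in replicate 3. Just outside the rule, chr1:171436885-171437940 had 31, 29 and 17 fragments in NuMA-depleted replicates 1, 2 and 3 and a single wild-type call, in replicate 3, with 6 fragments and a −log10 q of 2.15. Likewise, chr4:124261246-124261699 had 14, 19 and 13 fragments in the NuMA-depleted libraries and 6 in wild-type replicate 3 (−log10 q 2.50). At chr8:95036550-95037682 the counts were 23, 32 and 13 after NuMA depletion and 8 in wild-type replicate 2 (−log10 q 2.52).

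The 12 strongest depleted-only regions, ranked by the weakest −log10 q of their 3 calls, lay on 10 chromosomes and had summits close together. Their pileups at the summit ran from 18 to 51 fragments per library and their folds over the peak caller's local background from 6.43 to 13.5. The fold is a linear ratio within each list, as the authors deposited it. In all 12 the 3 summits fell within 77 bp of each other. By the rule, none had a peak in a wild-type library. Gene and exon positions on hg19 were not used here, so the regions are given by coordinates alone.

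Rank 1 was chr20:19796113-19796505, with 35, 40 and 25 fragments in NuMA-depleted replicates 1, 2 and 3 and folds of 11.6, 11.2 and 9.87. Its nearest wild-type peak was 12.3 kb away and called in all 6 libraries. Rank 2, chr18:57382979-57383484, had 32, 39 and 28 fragments, with summits 4 bp apart and a wild-type peak at 8025 bp. These regions kept a high rank in every NuMA-depleted list, at or above the 81st percentile (100 being the strongest peak of a list). Rank 3, chr8:38970322-38970854, had the highest pileup of the 12, with 42, 51 and 23 fragments and folds of 12.4, 11.1 and 8.11. Rank 4, chr3:148897730-148898292, had 28, 30 and 20 fragments. Both stood alone, with the nearest wild-type peak 70.5 kb and 49.7 kb away.

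Rank 5, chr13:78711737-78712277, had lower pileups, of 18, 19 and 21 fragments, on a background of only 1.14 to 1.45 fragments. Its summits agreed within 2 bp, and the nearest wild-type peak lay 386 kb away. Rank 6, chr1:159966363-159966752, had 19, 23 and 21 fragments and the closest wild-type peak of the 12, at 4145 bp. In these regions NuMA-depleted replicate 3 gave the highest fold of the 3 libraries, 9.0 and 9.48. Rank 7, chr7:47521596-47522336, had 32, 36 and 25 fragments over the highest background of the 12, of 3.08, 4.75 and 2.68 fragments. Rank 8, chr1:209212736-209213421, had 23, 28 and 21 fragments and lay 151 kb from the nearest wild-type peak, although another region without a wild-type call lay 5161 bp away. Rank 9, chr18:8121990-8122753, had 20, 32 and 23 fragments and lay 58.0 kb from a wild-type peak.

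Rank 10, chr15:57862968-57863778, was the most uneven of the 12 in fold, with 36, 23 and 21 fragments and folds of 13.5, 6.64 and 7.61. Rank 11, chr22:39114343-39114771, had 37, 32 and 22 fragments and folds of 11.0, 8.07 and 7.23. Replicate 1 was the highest of the 3 libraries in both. Rank 12, chr5:159276716-159277533, was the widest of the 12, with peaks of 818, 754 and 589 bp around pileups of 20, 24 and 21 fragments. Over the 12, the nearest wild-type peak was 4145 bp to 386 kb away and 1 region had a wild-type peak within 5 kb.

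**Figure D1:**
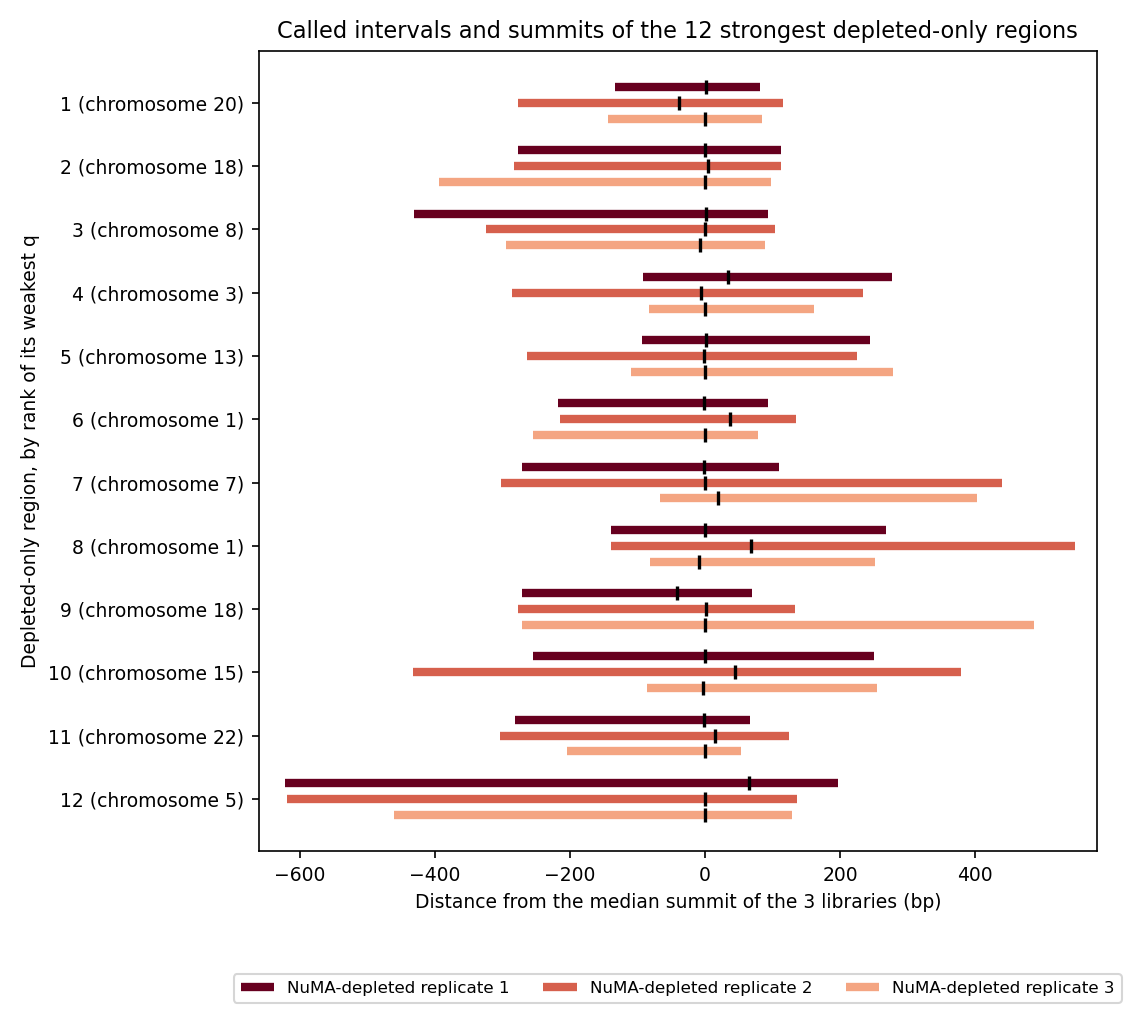
Called intervals (bars) and summits (black ticks) of the 12 strongest depleted-only regions in NuMA-depleted replicates 1, 2 and 3, against the distance in bp from the median of the 3 summits. Summits lie within 77 bp of each other in every region, while the edges of the called intervals differ more.

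Summit positions were not part of the rule, but merging overlapping narrow intervals limits how far apart they can lie, so their spread is given as a description. In 215 of the 368 regions (58.4%, exact 95% interval 53.2 to 63.5, for counting error only) the 3 summits lay within 100 bp. The share was 52.7% for the 17009 regions called in all 6 libraries, read in the same 3 NuMA-depleted libraries, and 52.1% (46.8 to 57.5) for the wild-type-only regions in their own 3 libraries. The median spread between the outermost summits was 82 bp in depleted-only, 93 bp in wild-type-only and 94 bp in shared regions. Between libraries, the median distance of summits in depleted-only regions was 43 bp for NuMA-depleted replicates 1 and 2, 46 bp for replicates 1 and 3 and 51 bp for replicates 2 and 3. The tightest was chr12:54793197-54793494, with all 3 summits on the same base and 20, 20 and 18 fragments. The loosest was chr22:38291262-38292486, where the summits were spread over 771 bp and replicate 2 called 1225 bp against 373 and 243 bp in replicates 1 and 3.

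The called intervals were narrower than those of shared regions. Set beside wild-type-only regions in their own lists, their median width was larger in NuMA-depleted replicates 1 and 2 and slightly smaller in replicate 3. Their median width was 362, 468.5 and 312.5 bp in NuMA-depleted replicates 1, 2 and 3, against 668, 796 and 500.0 bp for the shared regions in the same lists. Wild-type-only regions had medians of 315, 317 and 326 bp in wild-type replicates 1, 2 and 3. No peak in the NuMA-depleted lists was narrower than 213, 264 and 223 bp, and none in the wild-type lists narrower than 203, 190 and 222 bp. In 365 of the 368 regions the 3 intervals had a stretch in common, and in the other 3 no base was covered by all 3 calls. The common stretch covered a median of 49.9% of the merged region. In 263 regions (71.5%) all 3 summits fell inside it, against 70.5% of the wild-type-only regions and 91.7% of the shared regions. Only 2 depleted-only regions held more than 1 peak of a library, both in replicate 1.

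Within their lists the depleted-only regions ranked low, which follows in part from how they were chosen. Their median list percentile was 32.6, 34.8 and 20.9 in NuMA-depleted replicates 1, 2 and 3, against 73.8, 79.4 and 58.8 for the shared regions. Wild-type-only regions, chosen by the mirrored rule, ranked low in their own lists too, with medians of 27.0, 27.2 and 24.7 in wild-type replicates 1, 2 and 3. The median pileup was 18, 22 and 14 fragments, against 33, 45 and 22 for the shared regions. The median fold was 6.22, 5.80 and 5.02, with a mean of 5.68 ± 0.605 (SD, n = 3 libraries). Replicate 3 gave the lowest list percentile of the 3 calls in 230 regions (62.5%), replicate 1 in 76 and replicate 2 in 62. That replicate did so in 67.4% of the shared regions too. In 110 regions (29.9%) all 3 calls stood at or above the 25th percentile of their lists, in 21 (5.71%) at or above the 50th, and in 2 (0.543%) at or above the 75th. For wild-type-only regions the share at or above the 25th percentile was 25.8%.

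The share of depleted-only regions fell along the same scale among the 19702 regions called in all 3 NuMA-depleted libraries. Among those whose lowest percentile was under 10, 145 of 1626 (8.92%) had no wild-type peak. The share was 3.79% from the 10th to the 25th percentile, 1.67% from the 25th to the 50th, 0.354% from the 50th to the 75th and 0.0454% above. The order of ranks was also less alike between libraries than in the shared regions. How far the rank of a region differed between libraries was not computed. Spearman's rho of the list percentile across the 368 regions was 0.53 between NuMA-depleted replicates 1 and 2, 0.47 between 1 and 3 and 0.48 between 2 and 3, and it was 0.77, 0.70 and 0.70 across the 17009 shared regions. These are descriptions across regions of the same libraries.

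**Figure D2:**
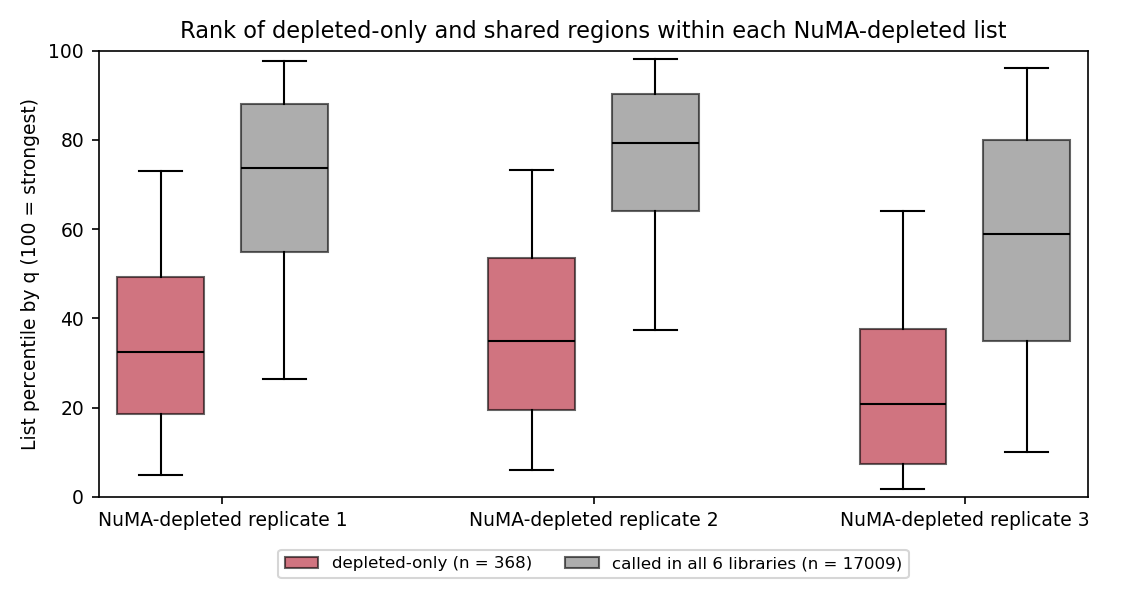
List percentile by q (y axis, 100 being the strongest peak of a list) of the 368 depleted-only and the 17009 shared regions in each NuMA-depleted library. Lines give medians, boxes the 25th to 75th and whiskers the 5th to 95th percentile of the regions. The depleted-only medians, 32.6, 34.8 and 20.9, lie below the shared medians in all 3 libraries.

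To set the pileups beside the wild-type lists, the pileup of each depleted-only region was scaled to each wild-type library. The mean over the 3 NuMA-depleted libraries, multiplied by the ratio of relative depths, came to a median of 15.2, 13.5 and 11.9 fragments in wild-type replicates 1, 2 and 3. A pileup of 9, 8 and 8 fragments (medians) was needed there to reach the lowest −log10 p of each wild-type list on the scaled background. The scaled pileup was at or above the needed one for all 3 wild-type libraries in 362 of the 368 regions (98.4%), with a median of 1.45 times the pileup needed in the least favourable one. In 29 regions (7.88%) the scaled pileup was at least 2 times that needed. When the scale came instead from the median pileup ratio in the 17009 shared regions, the scaled pileup was at or above the needed one in all 368, with a median ratio of 1.59, and 55 (14.9%) reached 2 times. For the 12 strongest the lowest ratio was 1.82 to 2.88 by depth and 2.07 to 3.08 by shared regions. The rule selected these regions for calls in the same NuMA-depleted libraries, which favours high pileups there, so the ratios describe the set and say nothing of why wild-type calls were missing.

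The same ratio was computed for all regions called in the 3 NuMA-depleted libraries, where it can be set beside the wild-type calls. Its median, by depth, was 1.45 in depleted-only regions, 1.61 in those with 1 wild-type call, 1.71 in those with 2 and 2.20 in those with 3. Among 443 regions with a ratio from 1 to 1.25, 77 (17.4%) had no wild-type peak and 167 (37.7%) a peak in all 3 wild-type libraries. From 1.5 to 2, 132 of 6134 (2.15%) had none and 79.6% had all 3. From 2 to 3, 29 of 9987 (0.290%) had none, and at 3 or more it was 0 of 1561, which allows up to 0.236% (exact 95% interval). By shared regions, 184 of 5211 regions (3.53%) with a ratio from 1.5 to 2 had no wild-type peak, 53 of 10669 (0.497%) from 2 to 3, and 2 of 2736 (0.0731%) at 3 or more. The part of depth in the absence of wild-type calls was not tested.

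**Figure D3:**
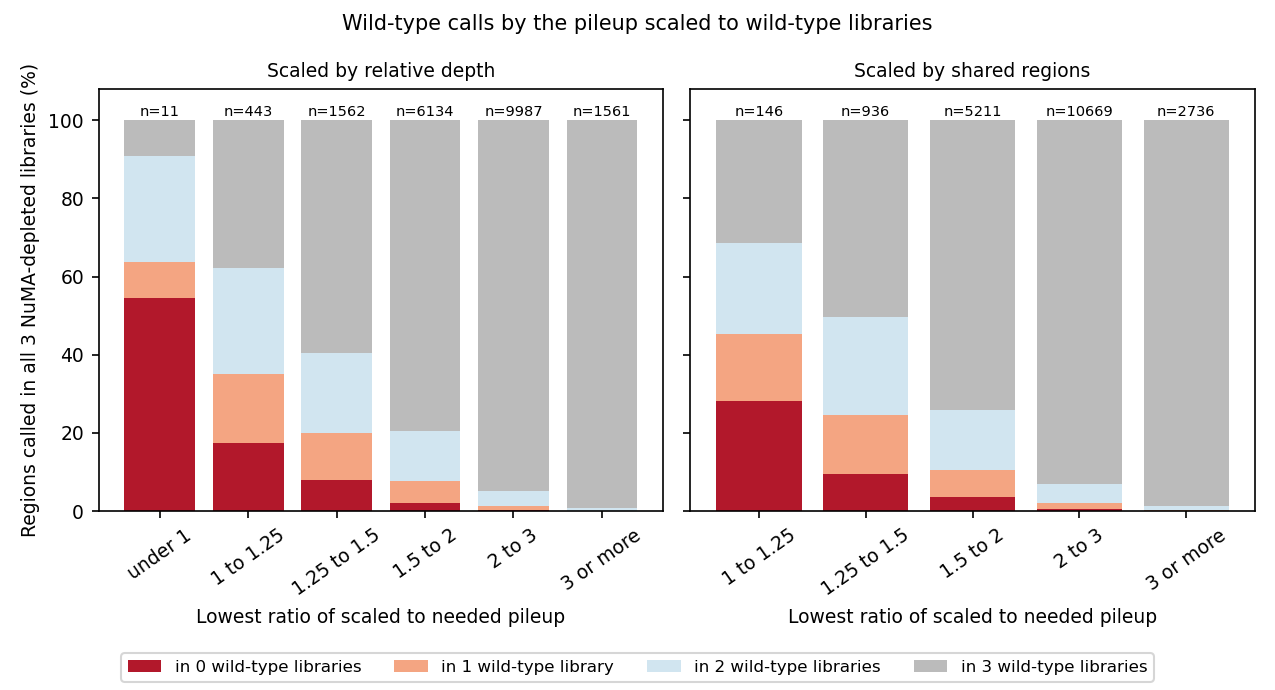
Percent of regions called in all 3 NuMA-depleted libraries (y axis) that had a peak in 0, 1, 2 or 3 wild-type libraries, by the lowest ratio of scaled to needed pileup (x axis), with the pileup scaled by relative depth (left) or by shared regions (right); n is the number of regions. The share without a wild-type peak drops from 17.4% at a ratio from 1 to 1.25 to 0.290% from 2 to 3 on the depth scale.

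Most depleted-only regions had accessible chromatin of wild-type cells at a moderate distance. The gap from the region's edge to the nearest wild-type peak had a median of 10.7 kb, with quartiles of 4.30 and 24.6 kb. It was under 1 kb for 17 regions (4.62%) and under 5 kb for 111 (30.2%, exact 95% interval 25.5 to 35.1). For wild-type-only regions the gap to the nearest NuMA-depleted peak had a median of 10.8 kb and was under 5 kb in 104 (29.8%, 25 to 34.9). The 2 shares lay within each other's interval.

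The nearest region called in all 6 libraries was a median of 33.1 kb from a depleted-only region and 40.5 kb from a wild-type-only region, and 31.5 kb from the next for the shared regions themselves. It was within 5 kb for 45 depleted-only regions (12.2%, 9.06 to 16.0) and for 6.55% of shared regions. For wild-type-only regions it was within 5 kb in 35 of 349 (interval 7.09% to 13.7%). The depleted-only and wild-type-only shares lay within each other's interval. These intervals cover counting error only, and neighbouring regions are not independent. The 6.55% concerns the gap from a shared region to the next shared region and is no background for the other sets. The share over all merged regions is not given here. The nearest region of any kind was one called in all 6 libraries for 115 depleted-only regions (31.25%). It was one called in some libraries of both groups for 141 (38.3%). For 62 (16.8%) it was one of the NuMA-depleted lists alone and for 50 (13.6%) one of the wild-type lists alone. These shares were close to those among all other merged regions. There, 29.0% were called in all 6 libraries, 38.4% in some libraries of both groups, 18.9% in NuMA-depleted lists alone and 13.7% in wild-type lists alone.

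**Figure D4:**
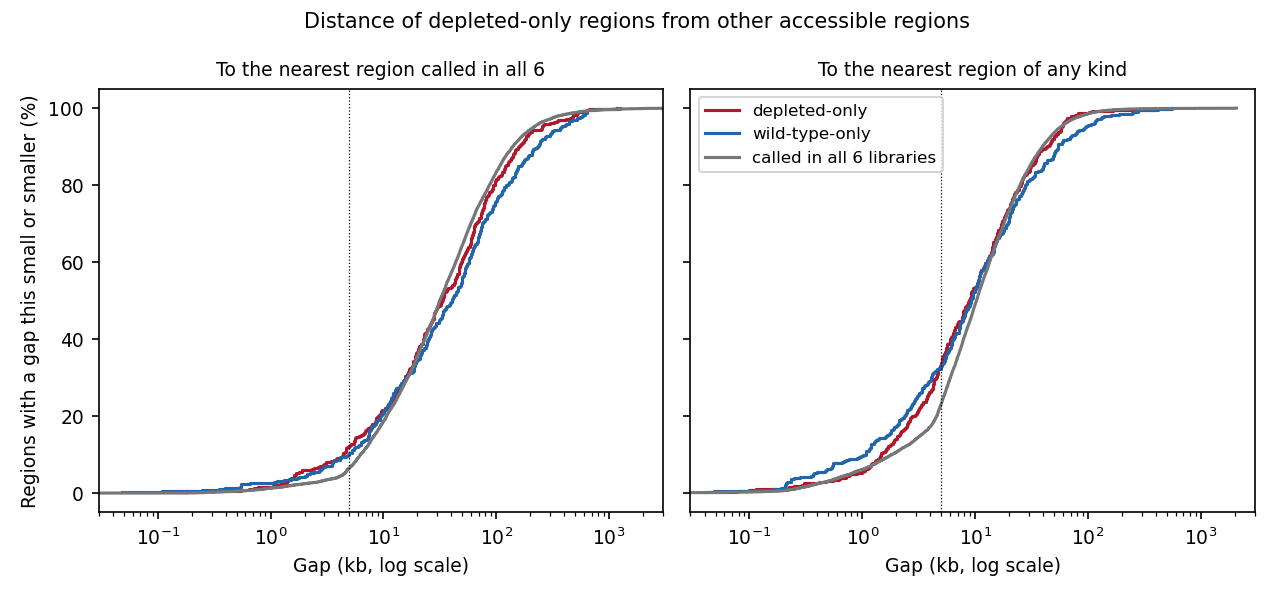
Cumulative percent of regions (y axis) by their gap in kb (x axis, log scale) to the nearest region called in all 6 libraries (left) and to the nearest region of any kind (right), for depleted-only, wild-type-only and shared regions. The dotted line marks 5 kb, under which 12.2% of depleted-only and 6.55% of shared regions had a shared neighbour. So did 35 of the 349 wild-type-only regions, whose interval (7.09% to 13.7%) includes the depleted-only share. The share over all merged regions is not given here.

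The 5 depleted-only regions closest to a shared region lay 114 to 718 bp from it. The closest, chr16:8979456-8980298, stood 114 bp above a shared region of 913 bp. It is among the 3 depleted-only regions in which no base was covered by all 3 calls, and its summits were spread over 237 bp. Its pileups of 20, 26 and 17 fragments gave folds of only 3.97, 3.25 and 4.03, since the local background was 4.29, 7.32 and 3.47 fragments. The shared neighbour was itself moderate, with folds of 4.51, 5.10 and 3.98 in NuMA-depleted replicates 1, 2 and 3 and of 4.95, 5.93 and 4.21 in wild-type replicates 1, 2 and 3. At chr7:120496895-120497331 the shared neighbour began 249 bp away and was strong in every library, with folds of 10.5, 9.79 and 6.96 after NuMA depletion and 9.11, 12.8 and 9.57 in wild type. The depleted-only region beside it had 20, 20 and 12 fragments.

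The other 3 were chr10:3511221-3511541, chr1:6661093-6661961 and chr1:85085159-85085620, at 552, 638 and 718 bp. At chr1:6661093-6661961 the depleted-only region had 50, 48 and 21 fragments and folds of 6.42, 4.62 and 4.02. Its shared neighbour had folds of 3.78, 4.39 and 4.18 after NuMA depletion, against 5.77, 4.94 and 4.71 in wild type, and was 698, 686 and 486 bp wide against 1082, 1193 and 1171 bp. The locus was chosen for its position, and these values are a description. How many of all shared regions separate by group in fold or width was not counted, and the difference was not tested. Folds of different lists are on no scale known to be common. At the neighbours of chr10:3511221-3511541 and chr7:120496895-120497331 the widths of the groups overlapped, while the folds overlapped only at the latter. At chr10:3511221-3511541 the neighbour's folds were 6.52, 7.5 and 4.10 in the NuMA-depleted lists against 9.81, 8.46 and 7.84 in wild-type lists, and its widths were 831, 1050 and 278 bp after NuMA depletion, against 439, 651 and 626 bp in wild type. The neighbour of chr7:120496895-120497331 was 802, 820 and 522 bp wide after NuMA depletion, against 877, 795 and 820 bp in wild type. The neighbour of chr1:85085159-85085620 had folds of 9.44, 8.76 and 7.46 after NuMA depletion, against 9.39, 9.79 and 9.75 in wild type, which overlapped.

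The 45 shared regions within 5 kb of a depleted-only region ranked lower than shared regions in general in all 6 libraries, which was not tested. Their median list percentile was 61.8, 72.9 and 49.6 in NuMA-depleted replicates 1, 2 and 3, and 69.0, 72.7 and 59.3 in wild-type replicates 1, 2 and 3. Over all 17009 shared regions the medians were 73.8, 79.4 and 58.8 after NuMA depletion, against 72.2, 74.0 and 70.4 in wild type. Depleted-only regions with such a neighbour had a higher local background than the other 323, with medians of 3.60, 5.47 and 2.89 fragments against 1.80, 2.52 and 1.70 in NuMA-depleted replicates 1, 2 and 3. Their pileups were higher as well, at 22, 29 and 17 against 17, 21 and 13 fragments, and their folds lower, at 4.64, 4.62 and 4.35 against 6.36, 5.96 and 5.14.

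At the other end, 40 depleted-only regions (10.9%) lay at least 50 kb from any wild-type peak and 10 (2.72%) at least 100 kb, against 50 (14.3%) and 22 (6.30%) of the wild-type-only regions from any NuMA-depleted peak. The most isolated was chr7:115347259-115348078, in a stretch of 866 kb without a wild-type peak. It had 16, 15 and 17 fragments in NuMA-depleted replicates 1, 2 and 3, folds of 8.27, 6.07 and 8.03 and summits within 76 bp, and 1 other region, called in a single NuMA-depleted library, lay in that stretch. The rank 5 region on chromosome 13 followed, alone in a stretch of 907 kb. Both combined similar pileups in all 3 libraries with a local background of at most 1.64 fragments.

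The other isolated regions had less even pileups. The region chr11:30939331-30939646, 315 kb from a wild-type peak, is also the one with the weakest call. At chr12:59797199-59797709, 192 kb from a wild-type peak, there were 15, 22 and 13 fragments, and 3 other regions of that stretch were called in a single NuMA-depleted library each. On the X chromosome, chrX:39287127-39287441 lay 185 kb from a wild-type peak and had 17, 12 and 8 fragments, the highest in replicate 1.

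Depleted-only regions were scattered over all 23 chromosomes. They made up 0.963% of the merged regions of chromosome 16 (21 regions), 0.900% of chromosome 20 (15), 0.805% of chromosome 4 (22) and 0.788% of chromosome 18 (9), around the 0.625% of the whole genome. The lowest shares were 0.311% on chromosome 19 (7), 0.405% on chromosome 17 (12) and 0.445% on chromosome 5 (13). Wild-type-only regions made up 0.367% and 0.420% of chromosomes 16 and 20, and 1.02% of chromosome 4. With few regions per chromosome, these shares were not tested.

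Few depleted-only regions were neighbours of each other. In 1 Mb bins, 311 of the 368 (84.5%) were alone, 24 bins held 2 and 3 bins held 3, while for wild-type-only regions 307 bins held 1, 19 held 2, none 3 and 1 bin 4. The median gap to the next depleted-only region was 2.30 Mb, and to the next wild-type-only region from a wild-type-only region 2.31 Mb. The closest depleted-only neighbours were chr11:14340004-14340462 and chr11:14358552-14359101, 18.1 kb apart. The first had 11, 14 and 13 fragments and the second 20, 17 and 11 in NuMA-depleted replicates 1, 2 and 3. Their summits were spread over 212 and 27 bp.

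The bins with 3 depleted-only regions were chromosome 5 from 36 to 37 Mb and chromosome 16 from 57 to 58 Mb and from 84 to 85 Mb, where 26, 56 and 55 merged regions stood in all. On chromosome 5 these were chr5:36363289-36363741, chr5:36657617-36658311 and chr5:36739666-36739980, with 12, 13 and 16 fragments in NuMA-depleted replicate 1, 23, 24 and 15 in replicate 2 and 11, 9 and 9 in replicate 3. On chromosome 16 the first bin held chr16:57350323-57351364, chr16:57677041-57677670 and chr16:57813089-57813615, and the second chr16:84256820-84257509, chr16:84403774-84404165 and chr16:84511879-84512400. Their folds ran from 3.65 to 7.55 over the 3 libraries, and replicate 3 gave the lowest list percentile in 5 of these 6 regions.

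**Figure D5:**
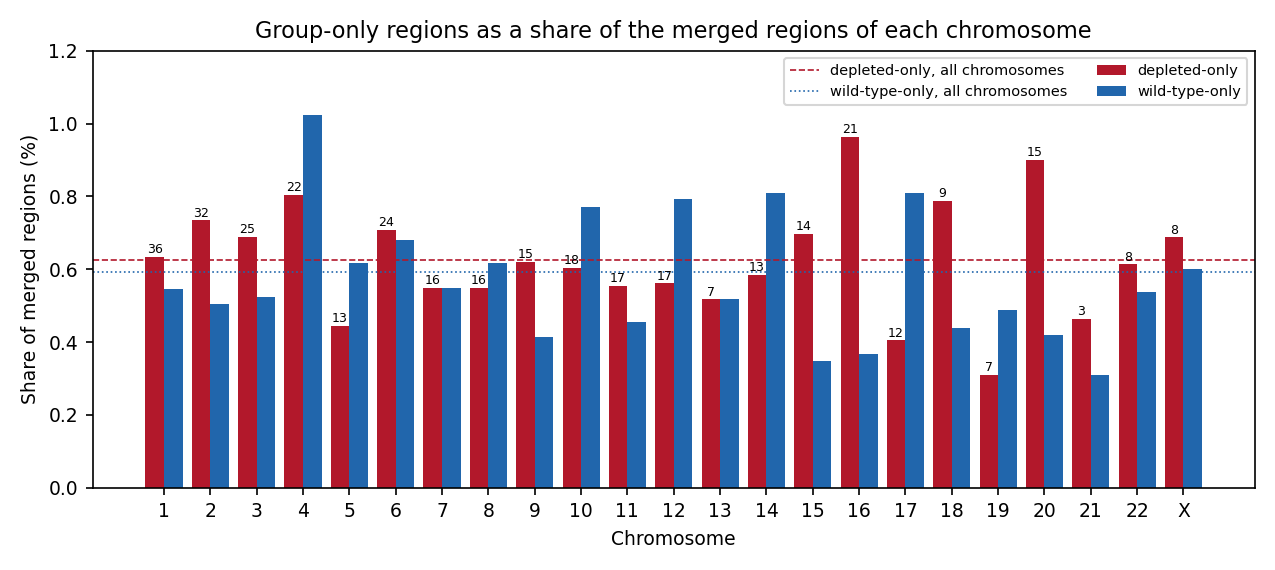
Depleted-only and wild-type-only regions as a percent of the merged regions of each chromosome (y axis, bars from 0), with the number of depleted-only regions above its bar. Horizontal lines give the shares over all chromosomes, 0.625% for depleted-only and 0.592% for wild-type-only regions. Chromosomes 16 and 20 carry the highest depleted-only shares and chromosome 19 the lowest.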

How the data were processed

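The build was hg19 and the tools included Bowtie2 2.4.1, Picard and Trim Galore, per the submitters' processing notes. The deposited peak names record a macs2 folder. For the caller's version and settings, read filters and any transposase shift, nothing is given in the sources used here. The authors deposited 1 peak list per sample, with the interval, the summit, the −log10 q-value, the −log10 p-value and a linear fold over local background. The deposited score follows the −log10 q and was not used. Folds and ranks are each list's own, on no scale known to be common.

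Here the lists were merged at 1 bp and a region's strongest peak per library was used. The whole-number pileup at each summit was recovered from fold and p under a Poisson model for 99.986% to 99.994% of peaks (tolerance 0.01 on −log10 p). Data simulated under the same model served to check the code, and cannot show whether the deposited lists follow that model. Relative depth is the smallest background divided by the smallest width, taken as the fragment length. Intervals are exact binomial at 95%. Regions were named by rules: the 12 with the highest weakest −log10 q, the 5 nearest to a shared region, the 5 farthest from a wild-type peak, the 3 nearest to each side of the rule, the extremes of summit spread, the closest neighbours and bins of 3 or more. The set and the lists were chosen with earlier results of these data known. The pileup scaling, the strata and the split at 5 kb from a shared region were chosen after seeing the values. No annotation or genome of hg19 was used here, so gene context, sequences and marker genes of the cell line were not analysed here. Versions were matplotlib 3.10.9, scipy 1.17.1, pandas 2.3.3, numpy 2.4.6 and Python 3.11.15.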

Additional observations from a re-analysis of the deposited data

How the results depend on the processing

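No paired analysis was possible because no result comes from a test. The share within 1 kb of a gene start was not run. The 368 depleted-only regions numbered 195 with presence set at a −log10 q of 5 or more and absence at no deposited peak. Their number was 318 with a −log10 q of at least 5 in every list, and it rose to 440 with equal numbers of peaks. Leaving out single libraries gave 432 to 2691 regions (585 and 2691 without NuMA-depleted replicates 1 and 3, 567 and 703 without wild-type replicates 1 and 2). The share with a wild-type peak within 5 kb, 30.2%, was 20.8% with a −log10 q of at least 5 in every list, 15.0% with equal numbers of peaks (21783 per list), 22.7% to 30.8% leaving out each library, and 4.62% within 1 kb. The share with 3 summits within 100 bp, 58.4%, was 69.8% with a −log10 q of at least 5 in every list, 79.5% with that limit for presence alone, 63.9% with equal numbers, 33.2% within 50 bp, and 59.4% to 79.0% leaving out each library, where 2 summits are compared if a NuMA-depleted library is missing. The median of the mean fold, 5.77, was 7.14 with equal numbers and 5.33 to 5.97 leaving out each library. Stricter lists hold fewer and stronger peaks by construction. Windows of 500 bp on summits, a 500 bp margin for absence and autosomes alone moved none of these 4 results by more than its interval, its SD or 1.5 times. Depth in reads is unknown, and the relative depth rests on an assumed fragment length.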

Other observations

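The 696 regions called in all 3 NuMA-depleted libraries and in a single wild-type library differ from the depleted-only regions by that call. It came from wild-type replicate 2 in 335 regions (48.1%), from replicate 1 in 199 (28.6%) and from replicate 3 in 162 (23.3%). The wild-type lists held 35502, 38685 and 32503 peaks in replicates 1, 2 and 3. The median pileup of that wild-type call was 13, 15 and 12 fragments in replicates 1, 2 and 3, at a median list percentile of 28.4, 28.2 and 22.4. In the NuMA-depleted libraries the 696 regions had median pileups of 19, 24.5 and 14 fragments, against 18, 22 and 14 for the depleted-only regions, and median list percentiles of 41.3, 45.5 and 22.4, against 32.6, 34.8 and 20.9. Their 3 NuMA-depleted summits lay within 100 bp in 63.4%.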
